A study of Mus musculus with 15 samples.

Results

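Cell division is run by a set of genes whose transcripts accumulate in G2 and mitosis. A set of 33 such genes was followed here through mouse NOTCH1-driven leukemias: mitotic kinases, cyclins, kinesin motors and the proteins of the spindle, kinetochore, anaphase and cytokinesis. The genes were taken by name, as the rows of the count table whose Entrez gene ID belongs to a symbol on the list. That list was set with earlier results of these data known, so shares of it beside all genes are descriptions. All 33 were found among 39827 genes, they lie on 14 chromosomes, and all 33 passed the filter on low counts in the 15-library fit.

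Gene expression was measured by RNA-seq of leukemic T cells from spleen in 15 libraries, 3 in each of 5 groups, on the deposited counts. Leukemias were made by transducing progenitors from the bone marrow, with Bcat1 intact or knocked out, with ΔE-NOTCH1, a truncated and active NOTCH1 (a retroviral model), and transplanting them into lethally irradiated C57BL/6J hosts. BCAT1 is the cytosolic enzyme that transfers amino groups of branched-chain amino acids, and the study examined what its loss or its inhibition changes. The groups were WT0 with PBS, WT0 with the BCAT1 inhibitor ERG-245 (3 intraperitoneal doses of 30 mg/kg, 8 h apart), WT6 (another Bcat1 wild-type leukemia), KO7 and KO3 (both Bcat1 knock-out). All 5 groups therefore share ΔE-NOTCH1 and irradiated hosts, and PBS is the labelled treatment of all but the ERG-245 group. The sample titles name PBS for the WT0 control libraries alone. For the 3 vehicle libraries the alignment names in the file header contain DMSO where the labels say PBS. The age of the mice is not given in the sources used here, the study's design text speaks of 5 samples, and each leukemia carries a single number in the labels. The labels do not say whether the 3 libraries of a group came from separate mice, so the p-values rest on the variation among these libraries, part or all of which can be technical.

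As background, CDK1 bound to cyclin A or B starts mitosis, Polo-like and Aurora kinases build the spindle, and kinesins move its microtubules. The checkpoint kinases hold the cell until each chromosome is attached, after which CDC20 and the anaphase-promoting complex have securin and cyclin B destroyed and separase cuts cohesin. Many genes of this program carry a cell cycle genes homology region (CHR), an element bound by the DREAM and MYB-MuvB complexes, near CCAAT boxes bound by NF-Y. In proliferating leukemic cells transcripts of these genes are used as a measure of cycling cells. In bulk RNA, fewer cells in division and less RNA per dividing cell cannot be told apart.

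To see what these genes share beyond the name, their promoters were searched for those elements. RefSeq promoter windows of GRCm38.p6 (250 bases before the start to 50 after it) were present for 27 of the 33 genes. The stretches printed here belong to 8 genes named in the results below, 110 bases each, 5′ to 3′ on the gene's strand. All 8 hold a CHR or its variant and a CCAAT box, so they do not stand for all 27 windows. Each ends 1 base before the table's transcription start, except that of Mki67, which covers bases 200 to 91 before it. For Espl1, Top2a and Mki67 that start lies inside the gene's outermost bounds in the count table. Capitals mark the letters TTTGAA (CHR), TTTAAA (CHR variant) and CCAAT, or their reverse complements TTCAAA and ATTGG.
Cdk1, chr10:69352913-69353022, minus strand: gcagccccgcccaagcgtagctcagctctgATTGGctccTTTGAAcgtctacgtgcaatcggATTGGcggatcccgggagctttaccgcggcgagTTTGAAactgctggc
Ccnb1, chr13:100786487-100786596, minus strand: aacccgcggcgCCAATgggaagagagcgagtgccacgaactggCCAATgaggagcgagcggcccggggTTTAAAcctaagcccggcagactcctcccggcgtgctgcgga
Ube2c, chr2:164769819-164769928, plus strand: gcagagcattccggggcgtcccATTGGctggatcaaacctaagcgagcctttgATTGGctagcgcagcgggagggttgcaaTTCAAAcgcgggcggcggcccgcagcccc
Cdc20, chr4:118437344-118437453, minus strand: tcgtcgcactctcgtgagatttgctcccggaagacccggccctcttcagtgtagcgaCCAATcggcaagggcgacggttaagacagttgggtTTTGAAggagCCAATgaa
Espl1, chr15:102296183-102296292, plus strand: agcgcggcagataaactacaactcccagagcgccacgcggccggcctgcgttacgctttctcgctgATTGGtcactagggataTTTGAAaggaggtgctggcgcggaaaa
Kif11, chr19:37376272-37376381, plus strand: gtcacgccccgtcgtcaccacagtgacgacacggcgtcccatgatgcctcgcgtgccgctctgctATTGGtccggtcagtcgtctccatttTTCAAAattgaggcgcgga
Top2a, chr11:99024190-99024299, minus strand: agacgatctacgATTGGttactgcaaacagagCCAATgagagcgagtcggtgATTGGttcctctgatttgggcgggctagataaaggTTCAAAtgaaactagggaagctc
Mki67, chr7:135716470-135716579, minus strand: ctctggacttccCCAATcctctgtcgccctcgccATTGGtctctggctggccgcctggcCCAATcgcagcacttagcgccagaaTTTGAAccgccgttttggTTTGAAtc
On either strand, TTTGAA stood in 20 of the 27 windows (74.1%), against 18.1% of the 27025 windows of that length in the table. The variant TTTAAA, which reads the same on both strands, stood in 8 windows (29.6% against 13.2%), and CCAAT on either strand in 20 (74.1% against 37.9%). Both TTTGAA and CCAAT were found in 17 windows (63.0% against 7.12%). No match overlapped another in these stretches, and the windows of Nuf2, Kif18a and Nusap1 held none of them. In 6 windows a pair of CCAAT boxes started 31 to 33 bases apart (22.2% against 1.04%), as in the stretches of Cdk1, Ccnb1 and Ube2c. That spacing was chosen after the positions were seen. In Cdk1, Cdc20, Kif11, Top2a, Espl1 and Ube2c a CHR began 15, 18, 19, 23, 27 and 29 bases before the start, with a CCAAT box upstream of it. That layout was not shared by all. In Plk1, Aurka, Bub1b, Ttk, Kif23, Hmmr, Ndc80, Cenpf and Anln TTTGAA stood only after the start. Its first base there lay between base 3 (Kif23 and Cenpf) and base 41 (Bub1b). The windows of Kif2c, Ndc80 and Anln held TTTGAA and no CCAAT. A match is a description of letters and not of binding.

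**Figure D1:**
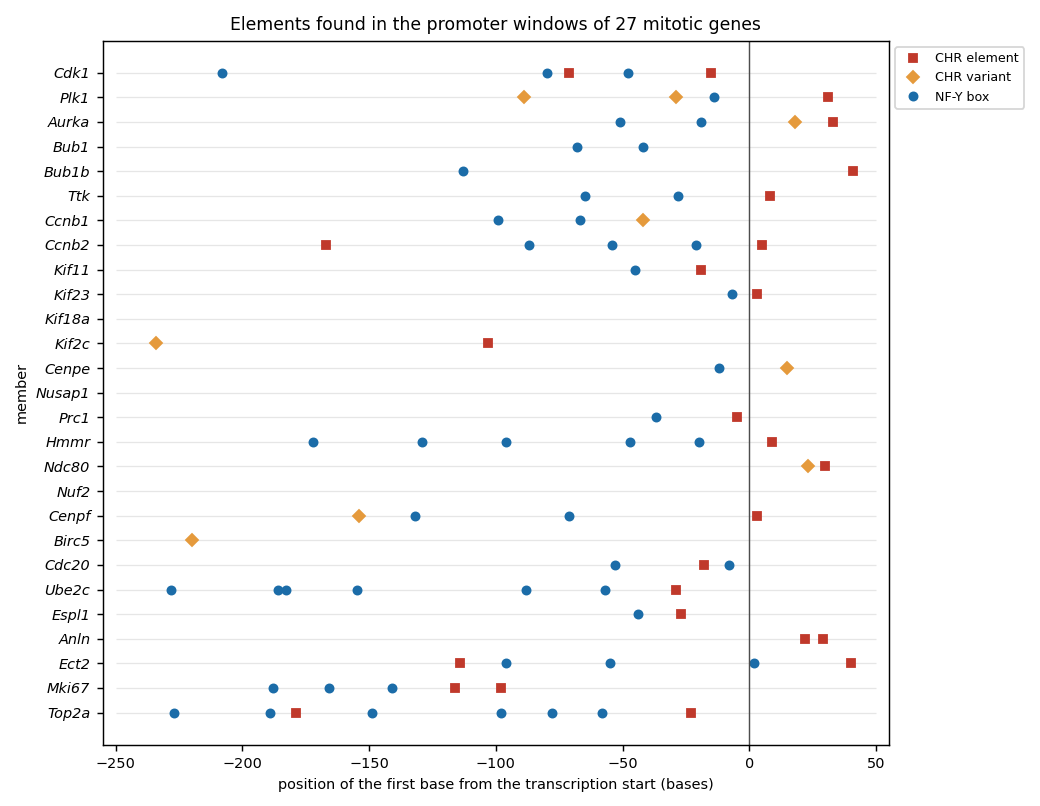
Positions of the CHR element, its variant and the NF-Y box (CCAAT) in the promoter windows of 27 mitotic genes, in bases from the transcription start of the RefSeq table (vertical line). Each symbol is a match on either strand, plotted at its first base, and 20 windows hold the CHR element, 20 hold an NF-Y box and 3 hold no match.

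Total counts were 17441292 to 28902573 per library, and each of the 33 genes had between 592 and 49275 counts in every library. Levels are given as CPM, counts scaled to each library's TMM-adjusted total, with the mean ± SD over a group's libraries (n = 3). Bcat1 stood lowest in the knock-outs, at 2.09 CPM in KO7 and 6.95 in KO3, against 17.8 in WT0 with PBS, 13.3 after ERG-245 and 35.2 in the WT6 libraries. Of 14 T cell markers 13 had group means of 46.4 CPM (Cd5) or more, and Cd7 lay between 1.59 and 4.02 CPM. WT0 with PBS and WT0 with ERG-245 did not share their leading T cell receptor beta segment. Trbv17 held 39.6% of the beta V counts with PBS and 0.93% with ERG-245, where Trbv16 held 49.9%. The inhibitor and the clone cannot be told apart in that comparison.

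The 33 genes together took 0.548% to 0.892% of all counts. Summed over the genes, the level was 8951 ± 29.8 CPM in WT0 with PBS, 8428 ± 46.7 under ERG-245, 7127 ± 64.3 in KO7, 5607 ± 78.4 in WT6 and 5375 ± 40.6 in KO3. WT0 with PBS had the highest sum, KO7 lay between, and WT6 and KO3 were lowest, with no overlap between the libraries of any groups. Without Mki67 the order of the groups was the same (6809, 6404, 5599, 4746 and 4574 CPM).

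Erythroid markers were also lowest in WT6 and KO3. Their summed level over 18 genes was 40070.4 to 42289.7 CPM in WT0 with PBS, 48302 to 52276 with ERG-245, 56302 to 59753 in KO7, 11368 to 13049.6 in WT6 and 10969 to 11391 in KO3. None of the 18 was at 0: the lowest mean was that of Tspo2 in WT6, at 18.9 CPM. The order was not the same throughout, since KO7 had more erythroid RNA than WT0 with PBS and less of the mitotic genes. The sums of 14 T cell markers were 5877 to 5920.4, 4257 to 4297, 5275 to 5388, 6662 to 6772 and 7017 to 7132 CPM in the same order of groups. Macrophage markers summed to 1200.3 to 1226, 1636 to 1665, 3712 to 3723, 1976 to 2069 and 1555 to 1573 CPM and plasma cell markers to 782 to 791, 2369 to 2411, 2031 to 2089.6, 7455 to 7783 and 2372 to 2414 CPM, again in that order. Neutrophil markers summed to 69.9 to 71.9, 4.66 to 6.05, 130.5 to 138, 321 to 343 and 178 to 182 CPM. At least 1 library with ERG-245 had 0 counts of the neutrophil markers Retnlg and Cxcr2. What part these cells have in the levels of the mitotic genes was not tested.

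**Figure D2:**
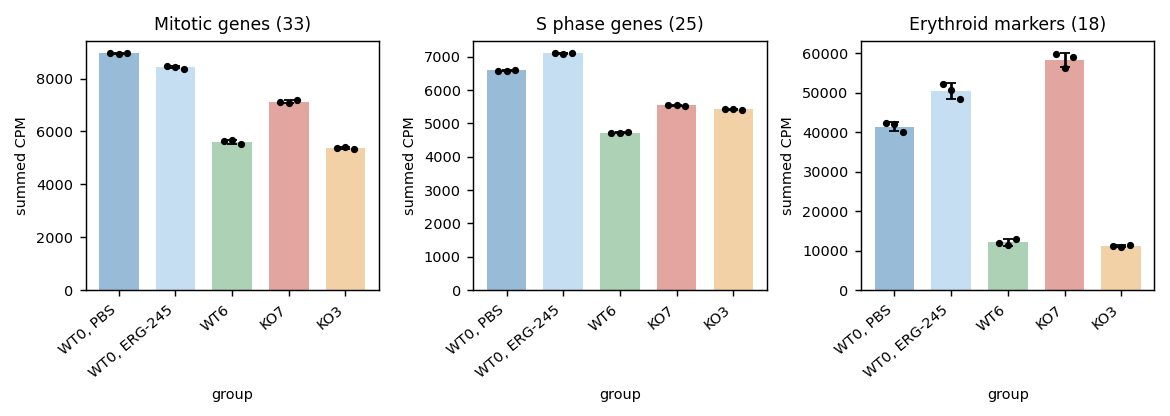
Summed CPM of the 33 mitotic genes, of 25 S phase genes and of 18 erythroid markers in the 5 groups. Bars are means, error bars SDs and points the 3 libraries of a group, and each axis starts at 0. The mitotic sum runs from 5375 CPM in KO3 to 8951 in WT0 with PBS, and the erythroid sum is lowest in KO3 and WT6.

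Levels between genes were compared per kilobase of merged exon. On that scale Ube2c (gene ID 68612, chromosome 2 from 164769929 to 164772902 of GRCm38.p6), the E2 enzyme of the anaphase-promoting complex, led with a mean over groups of 278 CPM per kb. Top2a, which untangles sister chromatids, followed at 148 and Mki67, which coats mitotic chromosomes, at 145 CPM per kb. The B cyclins Ccnb2 (131) and Ccnb1 (103) and cyclin A2, Ccna2 (108), completed the top 6. The lowest of the 33 were the checkpoint kinase Ttk (12.4), the cytokinetic ring protein Anln (13.7) and the outer kinetochore protein Cenpf (13.9 CPM per kb).

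Across the 5 groups the ratio of the highest to the lowest mean CPM ran from 1.15 for Ndc80 to 2.67 for Mki67, with a median of 1.55. Within groups the coefficient of variation had a median of 1.94% and was at most 7.44%, for Ttk. WT0 with PBS had the highest mean for 21 genes, WT0 with ERG-245 for 11 and KO7 for 1, which was Ube2c. KO3 had the lowest for 20, WT6 for 11 and KO7 for 2. Mki67 (gene ID 17345, chromosome 7 from 135689784 to 135716450) showed the order most plainly. It stood at 2187, 2119.8 and 2119 CPM in the WT0 libraries with PBS, 2033, 2014 and 2025 with ERG-245, 1534, 1500.2 and 1551 in KO7, 883, 874 and 827 in WT6 and 810.4, 809.6 and 783 in KO3. Each group was clear of its neighbours in that gene. Ndc80, a rod of the kinetochore that grips microtubules, stood at the other end with 67, 65.9 and 61.9 CPM in WT0 with PBS and 69.3, 67.4 and 67.3 with ERG-245. In KO7 it was 63.3, 59.9 and 63.9, in WT6 59.9, 62.4 and 54.9 and in KO3 61.5, 57.1 and 60.0 CPM. Among those, WT0 with PBS overlapped KO7, KO7 overlapped KO3 and KO3 overlapped WT6. For 17 of the 33 genes the libraries of WT6 and KO3 were next to each other in the order and overlapped. Libraries of KO3 lay all above those of WT6 for 4 of the 33 genes and all below for 12. Over the 15948 genes tested those counts were 4655 and 5347.

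**Figure D3:**
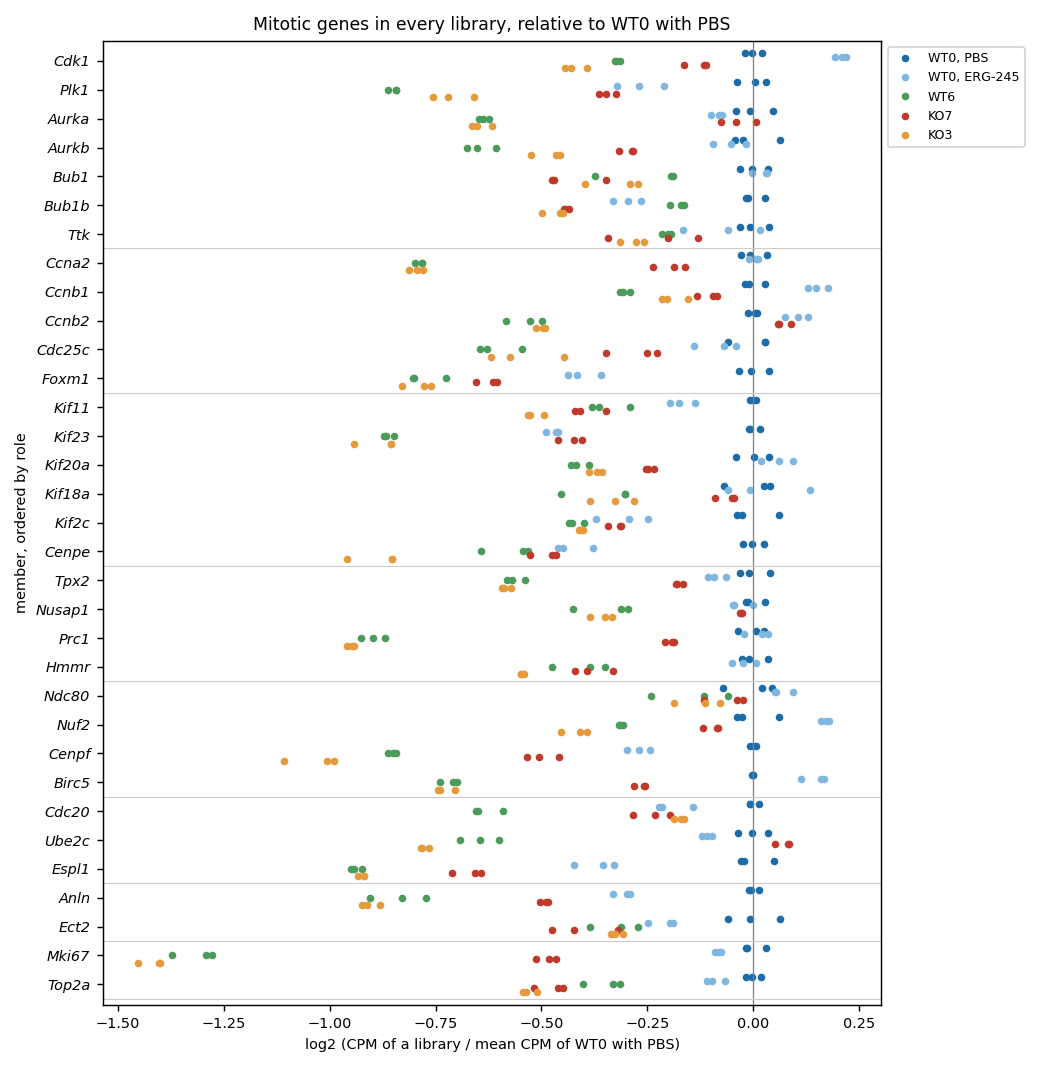
Level of each mitotic gene in each of 15 libraries, as log2 of its CPM over the mean of WT0 with PBS, with genes ordered by role (lines part the roles) and colours for groups. Points of a group lie close together, most WT6 and KO3 points lie left of those of KO7, and Mki67 shows the widest spread, from 801 to 2142 CPM.

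To evaluate what the inhibitor goes with in a leukemia with intact Bcat1, WT0 with ERG-245 was compared with WT0 with PBS. The mitotic genes did not move as a block. Of the 33, 5 were higher (15.2%, against 33% of the 15948 genes tested) and 17 lower (51.5%, against 32.8%), with a median log2 change of -0.08 beside 0.00 over all genes tested. Cdk1, both B cyclins, Nuf2 and the passenger protein Birc5 rose, while 4 of 6 kinesins and all 3 anaphase genes fell. The threshold was 0.05 for the p of edgeR's quasi-likelihood test, after Benjamini-Hochberg adjustment over all genes tested.

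Cdk1 (gene ID 12534, chromosome 10 from 69335146 to 69352912), the kinase that starts mitosis, stood at 229, 235 and 231 CPM with PBS and 268, 265 and 269.9 with ERG-245. Every treated library was above every PBS library (log2 0.21 with SE 0.0249, adjusted p = 1.82e-11 by edgeR). Its partner Ccnb1, cyclin B1, rose from 258, 250.1 and 251 to 277, 286 and 281 CPM, again without overlap (log2 0.15 with SE 0.0248, adjusted p = 1.39e-07 by edgeR). Ccnb2, the other B cyclin, rose less, from 224 ± 1.74 to 241 ± 4.55 CPM (log2 0.10 with SE 0.0257, adjusted p = 0.000326 by edgeR), and missed the threshold without TMM factors (log2 0.03, edgeR adjusted p = 0.241). Ccna2 stood at 450.2 ± 9.65 and 451 ± 3.54 CPM (log2 0.00 with SE 0.0228, adjusted p = 0.914 by edgeR). Birc5, survivin of the chromosomal passenger complex, rose from 322, 322 and 322 to 362, 359.8 and 348 CPM (log2 0.15 with SE 0.0234, adjusted p = 8.27e-08 by edgeR). Nuf2, which pairs with Ndc80 in the kinetochore, rose from 92.2, 93 and 98.7 to 106, 107 and 107 CPM (log2 0.17 with SE 0.0335, adjusted p = 4.92e-06 by edgeR). These 5 were the genes that rose.

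Kif23, a kinesin of the central spindle that is needed for cytokinesis, fell furthest, from 175, 175 and 178 CPM with PBS to 128, 128 and 125 with ERG-245 (log2 -0.47 with SE 0.0293, adjusted p = 1.92e-24 by edgeR). Cenpe, the kinetochore kinesin that carries chromosomes to the spindle equator, fell from 212, 208 and 205 to 160.3, 153 and 151 CPM (log2 -0.43 with SE 0.0299, adjusted p = 8.19e-22 by edgeR). For both genes the treated libraries lay well below those with PBS. Foxm1, a transcription factor of G2 and mitotic genes, fell from 175, 178 and 184 to 132, 134 and 139 CPM (log2 -0.40 with SE 0.0299, adjusted p = 2.39e-20 by edgeR). By role, beside 32.8% of all genes, 3 of 7 kinases fell (Plk1, Bub1b and Aurka), 4 of 6 kinesins (Kif23, Cenpe, Kif2c and Kif11) and 3 of 3 anaphase genes. Aurka was a small change (log2 -0.08 with SE 0.0327, adjusted p = 0.0199 by edgeR), lost without ERG-245 replicate 1 or PBS replicate 2 (edgeR adjusted p = 0.0691 and 0.154) and in DESeq2 (0.0506). Separase, Espl1, fell from 168 ± 5.08 to 130.4 ± 4.43 CPM and Plk1, the Polo-like kinase, from 181 ± 4.41 to 150.2 ± 5.8 (log2 -0.37 and -0.27). Mki67 fell by 0.08 and Top2a by 0.09 on the log2 scale. The remaining 11 genes, Prc1 and Aurkb among them, had log2 changes of -0.09 to 0.06 that missed the threshold.

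Other lists of division genes were counted in the same comparison. Of 23 further spindle and motor genes 4 rose and 14 fell. Cep55, which guides the final cut between daughter cells, fell from 52.3 to 32.2 CPM (log2 -0.70, adjusted p = 5.66e-22 by edgeR), and the spindle pole protein Numa1 fell as well (log2 -0.39, adjusted p = 2.31e-23 by edgeR). Of 29 further kinetochore and checkpoint genes 13 rose and 10 fell, with the centromeric histone Cenpa higher (log2 0.26, adjusted p = 2.21e-13 by edgeR). Among S phase genes 17 of 25 rose and 6 fell (median log2 0.13), and the clamp loader subunit Rfc4 was among the higher ones (log2 0.46, adjusted p = 3.5e-20 by edgeR). Of 8 CDK inhibitor genes 5 rose and 1 fell, and Cdkn1a, which encodes p21, was higher (log2 0.75, adjusted p = 3.18e-12 by edgeR). Erythroid markers were higher in 14 of 18 and T cell markers lower in 11 of 14. Among other cell types 8 rose and 2 fell of 12 macrophage markers (median log2 0.38), 0 rose and 8 fell of 10 neutrophil markers (median log2 -3.91), 0 rose and 9 fell of 10 B cell markers (median log2 -1.86), 6 rose and 2 fell of 8 plasma cell markers (median log2 1.28), 0 rose and 8 fell of 8 platelet markers (median log2 -2.76) and 7 rose and 2 fell of 9 stromal markers (median log2 0.28). The part of any of these in the changes of the mitotic genes was not tested.

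**Figure D4:**
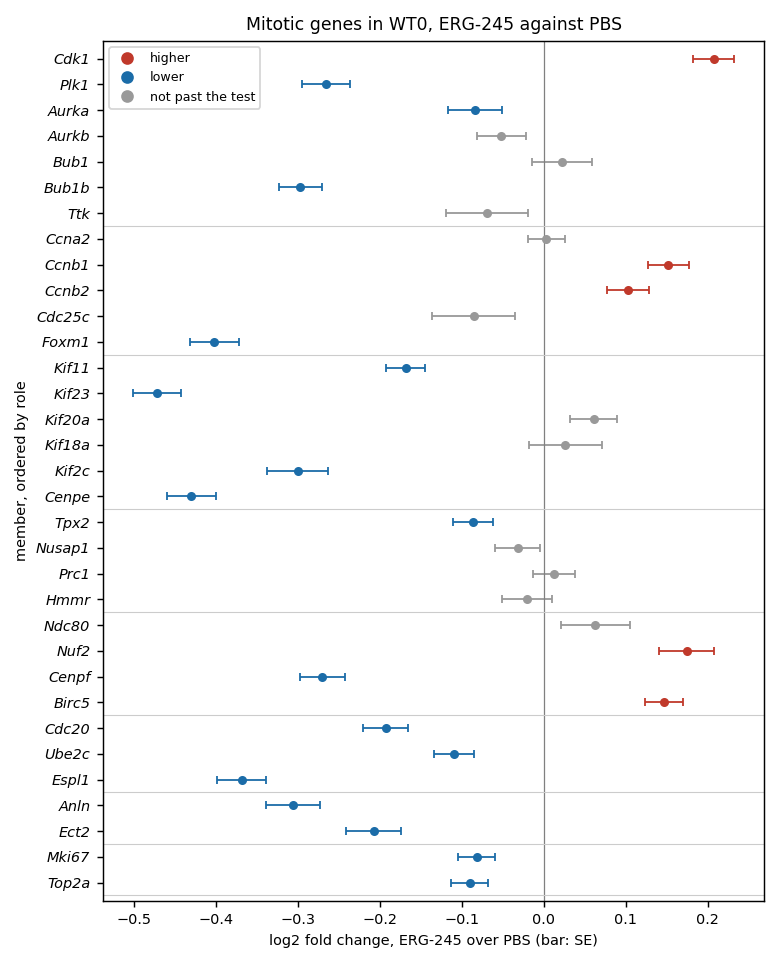
Log2 fold change of each mitotic gene in WT0 with ERG-245 over WT0 with PBS, by role, with the SE as bar. Red genes are higher and blue genes lower past the edgeR threshold. Cdk1 is the highest at 0.21 and Kif23 the lowest at -0.47.

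The knock-out leukemias were then compared with WT6, the second wild-type leukemia, which serves both comparisons as the same 3 control libraries. In KO7 most mitotic genes were higher than in WT6. Of 33, 25 rose (75.8%, against 32.2% of genes tested) and 4 fell (12.1%, against 36.7%), with a median log2 change of 0.28 beside -0.03 over all genes. In KO3, 4 rose (12.1%, against 27.7%) and 10 fell (30.3%, against 32.0%), with a median of -0.01 beside -0.02. The share that fell in KO3 was close to that of all genes, and 19 of the 33 did not pass in KO3.

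Mki67 rose the most in KO7, from 861 ± 30.0 CPM in WT6 to 1528 ± 25.8 (log2 0.83 with SE 0.023, adjusted p = 2.16e-46 by edgeR). In KO3 it was 801 ± 15.6 CPM and lower than in WT6 (log2 -0.11 with SE 0.0231, adjusted p = 6.02e-05 by edgeR). Ube2c went the same way, at 197, 191 and 203 CPM in WT6, 326, 327 and 319.7 in KO7 and 181, 179 and 179 in KO3. It rose in KO7 (log2 0.72 with SE 0.025, adjusted p = 5.81e-40 by edgeR) and fell in KO3 (log2 -0.13 with SE 0.0261, adjusted p = 1e-05 by edgeR). The microtubule crosslinker Prc1 of the central spindle stood at 131, 126 and 128 CPM in WT6 and 209, 207 and 210.0 in KO7, without overlap (log2 0.70 with SE 0.0273, adjusted p = 7.53e-37 by edgeR). In KO3 it was at 123, 124 and 124 CPM, just under WT6, and did not pass (log2 -0.05 with SE 0.0285, adjusted p = 0.1 by edgeR).

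Among the kinases, Aurka, which works at the spindle poles, rose in KO7 from 72 ± 0.612 to 109 ± 3.16 CPM (log2 0.60), and Plk1 from 100.3 ± 0.762 to 142 ± 2.03 (log2 0.50). Bub1b, the checkpoint protein BUBR1, fell in both knock-outs, from 207, 211 and 212 CPM in WT6 to 174, 176 and 174 in KO7 and 174, 173 and 168 in KO3. The values were log2 -0.27 with SE 0.0263, adjusted p = 1.08e-14 by edgeR in KO7 and log2 -0.29 with SE 0.0259, adjusted p = 1.48e-16 by edgeR in KO3. Its partner kinase Bub1 fell in KO7 (log2 -0.19 with SE 0.0382, adjusted p = 1.64e-05 by edgeR), although libraries of the groups overlapped. All 5 cyclins and regulators rose in KO7, with Ccnb2 at log2 0.61, Ccna2 at 0.59, the CDK1-activating phosphatase Cdc25c at 0.33, Ccnb1 at 0.20 and Foxm1 at 0.15. In KO3 Ccnb1 alone of these 5 passed (log2 0.11 with SE 0.0251, adjusted p = 5.48e-05 by edgeR). Ccna2 shows the pattern by library, with 259, 262 and 262 CPM in WT6, 383, 395 and 402 in KO7 and 256, 262 and 259.8 in KO3, where KO3 overlaps WT6 and KO7 stands apart.

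Of the 6 kinesins, 5 rose in KO7, beside 32.2% of all genes, and none in KO3, beside 27.7%. Kif2c, a microtubule depolymerase, rose slightly in KO7 (log2 0.10 with SE 0.0379, adjusted p = 0.0222 by edgeR), a call lost without KO7 replicate 2, KO7 replicate 3, WT6 replicate 2 or WT6 replicate 3 (edgeR adjusted p = 0.051 to 0.0607) and without TMM factors (0.498). Cenpe rose slightly in KO7 (log2 0.08 with SE 0.0308, adjusted p = 0.0179 by edgeR), a call lost without KO7 replicate 1, KO7 replicate 3 or WT6 replicate 3 (edgeR adjusted p = 0.085, 0.056 and 0.178) and without TMM factors (0.688). In KO3 Cenpe fell clearly, from 144, 143 and 134 CPM in WT6 to 115, 115 and 107 (log2 -0.32 with SE 0.0313, adjusted p = 1.05e-14 by edgeR). Kif11, the motor that pushes spindle poles apart, fell in KO3 (log2 -0.17) and stood at log2 -0.05 in KO7, where it did not pass. Cenpf stood at 123, 123 and 122 CPM in WT6, rose to 156, 153 and 161 in KO7 (log2 0.35 with SE 0.0295, adjusted p = 4.84e-18 by edgeR) and fell to 110.0, 111 and 102 in KO3 (log2 -0.18 with SE 0.0303, adjusted p = 2.8e-07 by edgeR). The other kinetochore genes that passed in KO7 were Nuf2 and Birc5, both higher (log2 0.22 and 0.45). Nuf2 was lower in KO3 (log2 -0.11 with SE 0.035, adjusted p = 0.00733 by edgeR), a call lost without KO3 replicate 3 (edgeR adjusted p = 0.0688).

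Cdc20, the activator of the anaphase-promoting complex, was the largest rise in KO3. It stood at 136, 137 and 142 CPM in WT6, 191, 188 and 190.5 in KO3 and 183, 187 and 176 in KO7, so that both knock-outs lay above WT6. The rise was log2 0.46 with SE 0.0276, adjusted p = 3.8e-25 by edgeR in KO3 and log2 0.40 with SE 0.0283, adjusted p = 1.93e-21 by edgeR in KO7. Aurkb, the kinase of the chromosomal passenger complex, and Plk1 also rose in KO3 (log2 0.16 with SE 0.0309, adjusted p = 3.81e-06 by edgeR, and log2 0.14 with SE 0.0317, adjusted p = 0.000114 by edgeR). Top2a fell in KO7 and KO3 (log2 -0.13 and -0.18). Ect2, the exchange factor that switches on RhoA for cytokinesis, was slightly lower in KO7 (log2 -0.09 with SE 0.0347, adjusted p = 0.0234 by edgeR). Its libraries overlapped and the call was lost without KO7 replicate 1, KO7 replicate 2, WT6 replicate 1 or WT6 replicate 2 (edgeR adjusted p = 0.0563 to 0.253), with only the compared groups (0.132) and in DESeq2 (0.0927).

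Other division genes were counted in KO7 as well. Of 23 further spindle and motor genes 15 rose and 7 fell, and of 29 kinetochore and checkpoint genes 17 rose and 3 fell. Spag5, which anchors kinetochore fibres, rose (log2 0.58, adjusted p = 1.3e-29 by edgeR), as did the passenger protein Cdca8 (log2 0.45, adjusted p = 3.95e-23 by edgeR). Of 25 S phase genes 18 rose and 3 fell, with the ribonucleotide reductase subunit Rrm2 higher (log2 0.83, adjusted p = 4.13e-47 by edgeR). Among transcription regulators of the cell cycle, 9 of 21 rose and 6 fell, with E2f2 going from 168 to 448 CPM (log2 1.41, adjusted p = 5.65e-60 by edgeR). The CDK inhibitor genes were higher in 5 of 8 and lower in 1. All 18 erythroid markers rose in KO7 against WT6 (median log2 2.23) and all 14 T cell markers fell (median log2 -0.24). For other cell types 11 rose and 1 fell of 12 macrophage markers (median log2 1.10), 1 rose and 8 fell of 10 neutrophil markers (median log2 -1.29), 0 rose and 8 fell of 10 B cell markers (median log2 -2.40), 0 rose and 8 fell of 8 plasma cell markers (median log2 -1.43), 1 rose and 5 fell of 8 platelet markers (median log2 -0.38) and 4 rose and 5 fell of 9 stromal markers (median log2 -0.68). Their part in the rise of the mitotic genes was not tested.

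In KO3 most S phase genes were higher while most mitotic genes did not pass, a difference between lists that was not tested. Against WT6, 22 of 25 S phase genes rose and 0 fell (median log2 0.20), whereas the median of the 33 mitotic genes was -0.01. The replicative helicase subunit Mcm6 went from 376 to 479.5 CPM (log2 0.35, adjusted p = 5.91e-24 by edgeR). Of 23 spindle and motor genes 2 rose and 10 fell. Of 29 kinetochore and checkpoint genes 9 rose and 8 fell, among them the scaffold Knl1 (log2 -0.44, adjusted p = 8.02e-22 by edgeR). Of erythroid markers 6 of 18 were higher and 4 lower (median log2 0.04), and of T cell markers 6 of 14 were higher and 7 lower. In the other marker lists 2 rose and 7 fell of 12 macrophage markers (median log2 -0.33), 0 rose and 9 fell of 10 neutrophil markers (median log2 -0.63), 0 rose and 7 fell of 10 B cell markers (median log2 -0.60), 1 rose and 7 fell of 8 plasma cell markers (median log2 -1.33), 0 rose and 4 fell of 8 platelet markers (median log2 -0.17) and 1 rose and 7 fell of 9 stromal markers (median log2 -0.35). Their part was not tested.

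Against WT0 with PBS, which again is the same set of control libraries for both, the knock-outs lay mostly lower. In KO7 2 genes were higher (6.06%, against 34.5% of genes tested) and 27 lower (81.8%, against 34.9%), with a median log2 change of -0.28. In KO3 0 were higher (against 34.1%) and all 33 lower (against 32.4%), with a median of -0.53. The medians over all genes tested were both 0.00. Erythroid markers rose in 13 of 18 and fell in 4 in KO7, so there the mitotic genes were lower while erythroid RNA was higher. In KO3 all 18 erythroid markers fell (median log2 -1.94), and 10 of 14 T cell markers rose. Other marker lists in KO7 gave these counts: 10 rose and 2 fell of 12 macrophage markers (median log2 1.76), 10 rose and 0 fell of 10 neutrophil markers (median log2 1.04), 0 rose and 9 fell of 10 B cell markers (median log2 -2.17), 5 rose and 2 fell of 8 plasma cell markers (median log2 0.92), 0 rose and 7 fell of 8 platelet markers (median log2 -0.43) and 2 rose and 6 fell of 9 stromal markers (median log2 -0.58). The same lists in KO3 gave these: 7 rose and 4 fell of 12 macrophage markers (median log2 0.21), 10 rose and 0 fell of 10 neutrophil markers (median log2 1.28), 0 rose and 7 fell of 10 B cell markers (median log2 -0.47), 7 rose and 0 fell of 8 plasma cell markers (median log2 1.44), 0 rose and 5 fell of 8 platelet markers (median log2 -0.26) and 2 rose and 7 fell of 9 stromal markers (median log2 -0.49). Their part was not tested.

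Espl1 (gene ID 105988, chromosome 15 from 102296254 to 102324357) was the lowest of the 33 in KO7 against WT0 with PBS. It stood at 174, 165 and 166 CPM in WT0 with PBS, 108, 107 and 103 in KO7 and 88.2, 89 and 89 in KO3, so both knock-outs were well below (log2 -0.67 with SE 0.0313, adjusted p = 9.95e-32 by edgeR in KO7). Foxm1 was at 175, 178 and 184, 117, 114 and 118 and 106, 101 and 104 CPM in the same order (log2 -0.62 with SE 0.0308, adjusted p = 3.06e-30 by edgeR in KO7), and Cenpf also fell in KO7 (log2 -0.50). Ccnb2 and Ube2c were the exceptions in KO7. Ccnb2 was 238, 233 and 233 CPM there against 224, 225 and 222 (log2 0.07 with SE 0.0259, adjusted p = 0.0139 by edgeR), and Ube2c was 326, 327 and 319.7 against 301, 316 and 308 (log2 0.07 with SE 0.0245, adjusted p = 0.00656 by edgeR). Both rises were 1.05-fold. The call of Ccnb2 was lost without KO7 replicate 1 or WT0 PBS replicate 3 (edgeR adjusted p = 0.0641 and 0.0507), that of Ube2c without WT0 PBS replicate 1 (edgeR adjusted p = 0.0625). Nusap1, a microtubule bundling protein, came next and did not pass (log2 -0.03 with SE 0.0276, adjusted p = 0.336 by edgeR), nor did Aurka, Kif18a and Ndc80 (log2 -0.04, -0.06 and -0.06).

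In KO3, Mki67 fell to 0.374 of its WT0 level (log2 -1.42 with SE 0.0232, adjusted p = 6.74e-62 by edgeR), Cenpf to 0.488 (log2 -1.03 with SE 0.0291, adjusted p = 7.83e-46 by edgeR) and Prc1 to 0.518 (log2 -0.95 with SE 0.0273, adjusted p = 2.98e-45 by edgeR). The smallest differences were those of Ndc80 (log2 -0.13 with SE 0.0422, adjusted p = 0.00576 by edgeR), Cdc20 (log2 -0.17 with SE 0.027, adjusted p = 3.83e-08 by edgeR) and Ccnb1 (log2 -0.19 with SE 0.0251, adjusted p = 3.68e-10 by edgeR). Ndc80 missed the threshold without KO3 replicate 2 or WT0 PBS replicate 1 (edgeR adjusted p = 0.073 and 0.0629) and without TMM factors (0.0993). Of further spindle and motor genes 22 of 23 fell in KO7 and 21 in KO3. Cit, the citron kinase of the midbody, fell in both, from 129 CPM in WT0 with PBS to 59.2 in KO7 and 38.9 in KO3. Of 25 S phase genes 20 fell in KO7 and 20 in KO3, with 2 and 2 higher. The CDK inhibitors went another way in KO7, with 7 of 8 higher and 0 lower.

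**Figure D5:**
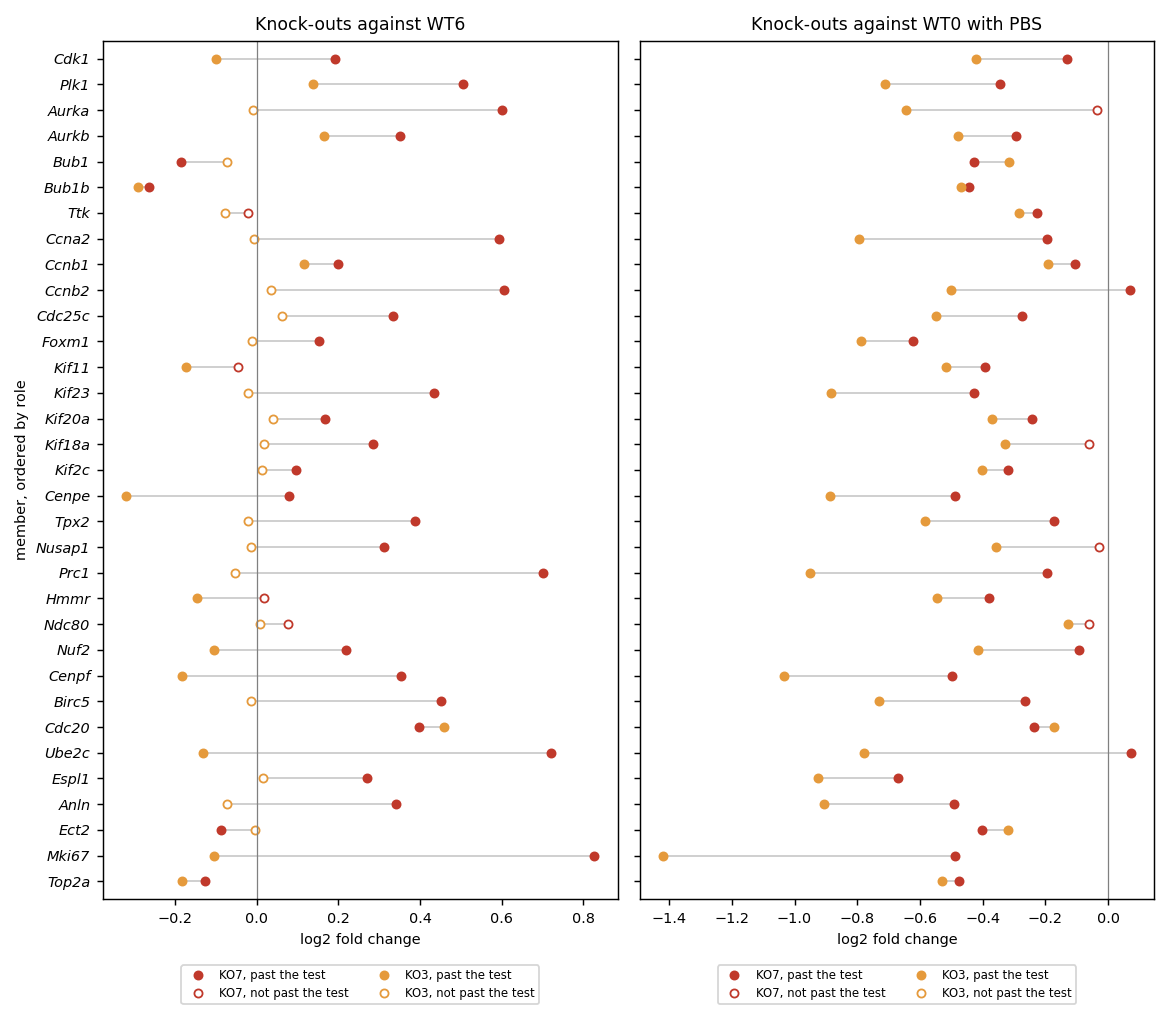
Log2 fold change of each mitotic gene in KO7 (red) and KO3 (orange) against WT6 (left) and against WT0 with PBS (right). Filled points passed the edgeR threshold and open ones did not, and a line joins both knock-outs. Against WT6 the points of KO7 lie mostly right of 0 and those of KO3 near it. Against WT0 with PBS nearly all lie left of 0, with Mki67 of KO3 at -1.42.

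The knock-outs also differed from each other. In KO3 against KO7 3 genes were higher (9.09%, against 36.1% of genes tested) and 26 lower (78.8%, against 34.6%), with a median log2 change of -0.27 beside 0.01 over all genes. The lowest were Mki67 (log2 -0.93 with SE 0.0232, adjusted p = 1.35e-49 by edgeR), Ube2c (log2 -0.85 with SE 0.0257, adjusted p = 6.73e-44 by edgeR) and Prc1 (log2 -0.75 with SE 0.028, adjusted p = 4.33e-38 by edgeR). Aurka, Ccna2 and Ccnb2 followed, at log2 -0.61, -0.60 and -0.57. Bub1, Ect2 and Cdc20 were slightly higher in KO3, and for Bub1 and Ect2 the libraries of KO3 and KO7 overlapped. Bub1 was at log2 0.11 with SE 0.0394, adjusted p = 0.00943 by edgeR, Ect2 at log2 0.08 with SE 0.0355, adjusted p = 0.033 by edgeR, and Cdc20 at log2 0.06 with SE 0.0278, adjusted p = 0.0399 by edgeR. Without KO7 replicate 1 no gene of the 33 was higher, without KO3 replicate 3 or KO7 replicate 2 there was 1, and DESeq2 called 1. Each of these calls was lost in several settings. The largest edgeR adjusted p was 0.0649 for Bub1 and 0.282 for Ect2, both without KO7 replicate 1. For Cdc20 it was 0.232, without KO7 replicate 3. Top2a stood at 679, 653 and 685 CPM in KO7 and 644, 656 and 641 in KO3, which overlap (log2 -0.05 with SE 0.0233, adjusted p = 0.0307 by edgeR). That call was lost without KO3 replicate 1, KO3 replicate 3, KO7 replicate 1 or KO7 replicate 3 (edgeR adjusted p = 0.0923 to 0.162) and without TMM factors (0.776). Mki67 in KO3 was 0.524 of its KO7 level. S phase genes were split here, with 11 of 25 higher and 7 lower in KO3. All 18 erythroid markers were lower in KO3 than in KO7 (median log2 -2.21), and 12 of 14 T cell markers were higher. Counts in the remaining lists were as follows: 1 rose and 11 fell of 12 macrophage markers (median log2 -1.34), 7 rose and 1 fell of 10 neutrophil markers (median log2 0.30), 7 rose and 0 fell of 10 B cell markers (median log2 1.54), 7 rose and 0 fell of 8 plasma cell markers (median log2 0.39), 4 rose and 1 fell of 8 platelet markers (median log2 0.18) and 3 rose and 4 fell of 9 stromal markers (median log2 -0.35). Their part was not tested.

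To set these differences beside those between leukemias of the same genotype, WT6 was compared with WT0 with PBS. As in the other comparisons, these leukemias also differed in leading beta V segment and in Xist level, and the part of either was not tested. In WT6 0 of the 33 were higher (against 36.8% of genes tested) and all 33 lower (against 35.6%), with a median log2 change of -0.56 beside 0.00 over all genes. KO3 against the same WT0 libraries had a median of -0.53. Mki67 fell by 1.31, Espl1 by 0.94 and Prc1 by 0.90 on the log2 scale, while Ndc80, Bub1b and Ttk fell least (log2 -0.14, -0.18 and -0.21). Ndc80 missed the threshold without WT6 replicate 3 (edgeR adjusted p = 0.057) and without TMM factors (0.13). Of 25 S phase genes 24 fell and of 23 spindle and motor genes 21. All 18 erythroid markers fell too (median log2 -2.0), and 11 of 14 T cell markers rose. Between these wild-type leukemias 8 rose and 2 fell of 12 macrophage markers (median log2 0.45), 10 rose and 0 fell of 10 neutrophil markers (median log2 2.40), 4 rose and 3 fell of 10 B cell markers (median log2 -0.04), 8 rose and 0 fell of 8 plasma cell markers (median log2 2.62), 2 rose and 3 fell of 8 platelet markers (median log2 0.03) and 5 rose and 4 fell of 9 stromal markers (median log2 0.10). Their part was not tested. The libraries of WT6 and WT0 with PBS did not overlap in 32 of the 33 genes (97.0%, against 74.1% of the 15948 genes tested), and Ndc80 was the exception.

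In order to use the leukemia as the unit for genotype, the 3 libraries of each were added up, and KO7 and KO3 were set against WT0 with PBS and WT6, 2 leukemias a side. With the spread between leukemias as error (a biological coefficient of variation of 41.9%, against 2.18% between libraries of a group), none of the 33 passed, as for 0.0% of the 17226 genes tested with edgeR. At an unadjusted edgeR p under 0.05 there were 226 genes (1.31% of those tested) and none of the 33. That share is so low that none among 33 says little about these genes. DESeq2 called 43 genes and none of the 33. The smallest unadjusted edgeR p among the 33 was 0.118. The median log2 change was -0.14, with 29 genes lower and 4 higher, and SEs ran from 0.177 for Ndc80 to 0.563 for Mki67. The lowest values were those of Cenpe (log2 -0.40 with SE 0.279), Espl1 (log2 -0.38 with SE 0.349) and Cenpf (log2 -0.36 with SE 0.361). The highest were Cdc20 (log2 0.09 with SE 0.268), Ccnb2 (log2 0.07 with SE 0.304) and Ccnb1 (log2 0.01 with SE 0.208). The median was 0.17 without WT0 with PBS, 0.0067 without KO3, -0.33 without KO7 and -0.37 without WT6, so its sign depended on which leukemias, wild-type or knock-out, were used.

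The size of the change also went with transcript length in some comparisons. Across the 33 genes, Spearman's rho between the log2 change and the merged exon length (931 to 11367 bases) was -0.746 in KO7 against WT0 with PBS and -0.83 across leukemias. In the other comparisons it was -0.573 for KO3 against WT6, -0.448 for KO3 against WT0 with PBS, -0.373 for ERG-245, -0.326 for KO7 against WT6, -0.184 for WT6 against WT0 with PBS and 0.0187 for KO3 against KO7. These are descriptions across genes that share libraries and depth, with no p. Over all genes tested rho lay between -0.267 and -0.0278. In KO7 against WT0 with PBS the median log2 change was -0.10 for the 10 genes under 2500 bases, -0.24 for 11 genes up to 4000 and -0.48 for the 12 longer ones. Ube2c (931 bases) and Ccnb2 (1541 bases), which rose, are short, and Espl1 (7014 bases), Foxm1 (4365 bases) and Cenpf (11367 bases), the lowest 3, are long. After subtracting the median change of genes of like length, an analysis chosen after the data were seen, the median in that comparison was -0.31 beside -0.28. After that centring Spearman's rank correlation with length was -0.33 in KO7 against WT0 with PBS and -0.604 across leukemias.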

How the data were processed

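RNA-seq of spleen leukemic T cells was deposited as 1 table of read counts per gene for 15 libraries. Per the file headers, the authors made the counts with featureCounts 2.0.1 on RefSeq GRCm38.p6 from read pairs with both ends mapped, chimeras left out, an overlap of at least 25 bases and strand setting 2. The submitters' processing notes also name Trim Galore, STAR, Subread and DESeq2, with mm10. The length column, per the file headers, is the merged exon length. Of 39836 lines, 39827 genes were read and 3 broken gene entries left out. Gene IDs took symbols from the RefSeq table, which matched 39743 of them. 0 columns belonged to other samples.

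Genes were kept with filterByExpr and scaled by TMM. The quasi-likelihood test of edgeR 4.0.16 (R 4.3.3) was fitted to all 15 libraries (15948 genes, 10 residual degrees of freedom) and, for genotype across leukemias, to sums per leukemia (17226 genes, 2 residual degrees of freedom), with Benjamini-Hochberg adjustment at 0.05 over all genes tested. It was tested on simulated data with 200 changed genes. Libraries held 17441292 to 28902573 counts. Libraries of a group differed by more than counting noise, so none was merged as a duplicate deposit. This does not show that they are independent samples.

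The genes and lists were chosen with earlier results of these data known. Any of the 33 may be named, and each comparison names the 3 highest and 3 lowest log2 changes and each gene that passed against the direction of most. Other lists give up to 3 genes of smallest p. Alternatives were DESeq2 1.42.0, no TMM, no filter, only the compared groups, a replicate block and leaving out each library or leukemia. A centring on genes of like length was chosen after seeing the data.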

Additional observations from a re-analysis of the deposited data

Results flagged for a closer look

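A difference between the knock-out leukemias was singled out where KO7 and KO3 passed the edgeR test in opposite directions against the same control libraries, with the difference itself tested as KO3 against KO7. Against WT6, 6 of the 33 genes (18.2%, against 7.61% of the 15948 genes tested) were higher in KO7 and lower in KO3. The KO3 against KO7 log2 change was -0.93 for Mki67, -0.85 for Ube2c, -0.54 for Cenpf, -0.40 for Cenpe, -0.32 for Nuf2 and -0.29 for Cdk1, and each passed. The call of Cenpe in KO7 and that of Nuf2 in KO3 each depended on single libraries. Against WT0 with PBS, Ube2c and Ccnb2 (6.06% of the 33, against 6.65% of genes tested) were slightly higher in KO7 and lower in KO3, with KO3 against KO7 log2 changes of -0.85 and -0.57. That share is close to the share over all genes, and the calls of both in KO7 also depended on single libraries. Erythroid markers were also lower in KO3 than in KO7, in 18 of 18, and so were macrophage markers in 11 of 12, and their part was not tested.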

How the results depend on the processing

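Of 2772 values of the 33 genes under alternatives, 94 had the opposite sign. None of these had passed as reported, and 2 of them passed under the alternative. With the sign kept, 51 values no longer passed and 24 newly passed. Without TMM factors the median log2 change of the 33 was -0.15 with ERG-245, 0.22 in KO7 and -0.033 in KO3 against WT6, -0.48 in KO3 and -0.49 in WT6 against WT0 with PBS, -0.22 in KO3 against KO7, and -0.15 across leukemias, where Ccnb1 turned to -0.0072. Without those factors the median over all genes tested moved too, by -0.069 with ERG-245 and by -0.065 in KO7 and -0.018 in KO3 against WT6. It moved by 0.051 in KO3 and 0.069 in WT6 against WT0 with PBS. The move over all genes was 0.047 in KO3 against KO7 and -0.024 across leukemias. Without a filter the ERG-245 median of the 33 was -0.11. DESeq2 gave 0.30 for KO7 against WT6. With only the compared groups the medians against WT6 were 0.31 in KO7 and 0.0043 in KO3. Centred on genes of like length they were 0.30 for KO7 against WT6, -0.31 for KO7 and -0.54 for WT6 against WT0 with PBS, and -0.17 across leukemias. In KO3 against KO7, DESeq2 and the fit without a filter each left 1 gene higher. The cause was not tested.

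Leaving out each library in turn gave medians of -0.086 to -0.074 with ERG-245, 0.26 to 0.31 in KO7 and -0.030 to -0.0060 in KO3 against WT6, -0.30 to -0.26 in KO7, -0.53 to -0.51 in KO3 and -0.57 to -0.54 in WT6 against WT0 with PBS, and -0.31 to -0.25 in KO3 against KO7. The number of genes higher was 1 to 2 in KO7 against WT0 with PBS and 0 to 2 in KO3 against KO7. Leaving out each leukemia gave medians of -0.37 to 0.17 across leukemias, and ranges of -0.13 to 0.18 for Ccnb1, -0.24 to 0.38 for Ccnb2, -0.19 to 0.46 for Cdc20, -0.73 to 0.13 for Cenpf and -0.78 to 0.17 for Espl1, so the sign of each depended on the leukemia left out.

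Replicate numbers did not pair the libraries: deviations of same-numbered libraries correlated at -0.137 to 0.0892 (30 pairs), and 0 libraries correlated best with their own number. With the replicate number as a block, 27 genes were lower in KO3 against KO7 in place of 26, and no other count changed.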

Other observations

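In KO3 against KO7, 6 of 8 genes on the CDK inhibitor list fell and 0 rose. Those that fell included Cdkn3 (log2 -1.25, adjusted p = 2e-29 by edgeR) and Cdkn2d (log2 -0.94, adjusted p = 7.49e-35 by edgeR). Of 12 genes of G1 cyclins and their kinases 6 rose and 5 fell there, against 36.1% and 34.6% of all genes. Cdk6, a kinase that drives G1 with D cyclins, stood above its KO7 level in KO3 (log2 1.77, adjusted p = 1.12e-64 by edgeR) and above its WT6 level (log2 1.22, adjusted p = 9.83e-56 by edgeR), while the D cyclin Ccnd3 was lower than in WT6 (log2 -0.44, adjusted p = 1.48e-27 by edgeR). Fzr1, the CDC20 relative that activates the anaphase-promoting complex in G1, rose in KO7 against WT6 (log2 1.07, adjusted p = 2.57e-46 by edgeR). In the 24 genes of the anaphase-promoting complex and cohesin list, 11 rose and 13 fell there.

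Condensins, which compact mitotic chromosomes, were lower than in WT0 with PBS in 8 of 8 genes in KO3, 8 of 8 in WT6 and 7 of 8 in KO7. The phosphatase Cdc25b, which activates CDK1, fell with ERG-245 (log2 -0.54, adjusted p = 3.78e-31 by edgeR) and rose in KO7 against WT6 (log2 0.86, adjusted p = 3.56e-44 by edgeR).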
